A study of Homo sapiens with 12 samples.

Results

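The genes described here are 45 genes of DNA replication and mitosis, taken by name from the 27130 genes of an RNA-seq count table of H1, an established human embryonic stem cell line. They comprise 18 genes of DNA replication, 8 regulators of G1 and of the entry into S phase, and 19 genes of G2 and mitosis. The table holds 12 libraries of poly(A) RNA, 3 in each of 4 groups. Per the labels, these are cells with a homozygous ZNF263 KO that also overexpressed ZIC2, cells with the homozygous ZNF263 KO, cells that overexpressed ZNF263 (ZNF263 OE), and WT cells. ZNF263 and ZIC2 are zinc finger transcription factors, and the series asks what ZNF263 does in pluripotency, with ZIC2 as its cofactor. The library names of the ZNF263 KO and WT groups carry the tag vec, those of both KO groups share a further tag, and no time point is given. Whether the KO cells were 1 clone, which edit was made, which promoters drove the overexpressed genes, and whether replicate libraries are separate cultures are not given in the sources used here. Every p-value is thus set against the spread between libraries of a group, which may be technical.

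The cell cycle copies the genome in S phase and divides it in M phase. In G1 the licensing factors CDC6 and CDT1 load the MCM helicase onto origins. D-type and E-type cyclins then release the E2F factors, which transcribe the replication genes. Later, CDK1 with cyclins A and B, together with the kinases PLK1, AURKA and AURKB, drives mitosis, whose genes are transcribed last in the cycle. Human embryonic stem cells are known for a short G1 and for a large share of cells in S phase. Bulk RNA gives an average over all cells of a culture. A lower level of a phase-bound transcript can therefore not be told apart from fewer cells in that phase.

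Levels are given as CPM, which are counts divided by the library size, itself adjusted by the TMM factors of edgeR. The quasi-likelihood test of edgeR was fitted to all 12 libraries and 15437 genes. A gene is called higher or lower at an adjusted p (Benjamini-Hochberg over all genes tested) under 0.05, and every adjusted p of a gene below is from this fit unless named otherwise. All 45 members passed the expression filter. Each library held 17175183 to 21804410 counts, apart from ZNF263 KO replicate 1 with 43464609. The members held 0.800 to 0.805% of the counts in KO with ZIC2 OE, 0.782 to 0.798% in ZNF263 KO, 0.838 to 0.849% in ZNF263 OE and 0.824 to 0.838% in WT. ZNF263 had 35.9, 30.1 and 30.8 CPM in KO with ZIC2 OE, 30.9, 31.1 and 31.2 CPM in ZNF263 KO, 249, 251 and 219 CPM in ZNF263 OE, and 40.7, 38.8 and 38.2 CPM in WT. ZIC2 had 2226, 2018 and 1878 CPM in KO with ZIC2 OE, against 157, 159 and 152 CPM in ZNF263 KO. The log2 fold change of ZNF263 in ZNF263 KO against WT was -0.33 (adjusted p = 0.000302), and in ZNF263 OE against WT it was 2.61. Gene counts do not show whether the remaining ZNF263 transcript of the KO cells could encode a protein. All 7 markers of undifferentiated cells exceeded 1 CPM in every group, with sums of 4579 to 4708 CPM in KO with ZIC2 OE, 4838 to 5030 in ZNF263 KO, 4497 to 4571 in ZNF263 OE and 4452 to 4636 in WT. Marker lists of endoderm, mesoderm, neuroectoderm and trophoblast summed to at most 8.36 CPM in any library. A list of 5 fibroblast or feeder markers summed to 608 to 659 CPM in KO with ZIC2 OE, 531 to 575 in ZNF263 KO, 487 to 500 in ZNF263 OE and 483 to 498 in WT. Within that list COL1A1 had 196 to 235 CPM in KO with ZIC2 OE, 103 to 116 in ZNF263 KO, 64.1 to 66.1 in ZNF263 OE and 66.3 to 71.1 in WT. COL1A2 had 109 to 121, 90.8 to 98.3, 77.9 to 83.65 and 78.8 to 87.2 CPM in the same 4 groups, and THY1 had 297 to 304, 327.5 to 361.9, 345 to 352.8 and 334 to 339 CPM. DCN and LUM were at most 0.22 CPM in every library.

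ZNF263 KO replicate 2 stood apart from the other KO libraries by gene length. The median log2 ratio of its CPM to the mean of KO replicates 1 and 3 was 0.10 in the shortest 20% of genes and -0.11 in the longest 20%. The long members shared this, with -0.55 for MKI67 and -0.31 for CENPF. Values that turn on this library are given with and without it, or as the range over fits that each left out a library. Without this library 10 members were higher and 13 lower in ZNF263 KO against WT, as with it. The share of counts from mitochondrial genes was 0.963 to 1.13% in KO with ZIC2 OE, 1.11 to 1.16% in ZNF263 KO, 1.36 to 1.44% in ZNF263 OE and 1.36 to 1.40% in WT, and the part of this share, or of the fibroblast list, in the results was not tested.

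The promoters of 36 members are in the RefSeq table used here (GRCh38.p14), as 50 windows of 300 bases from 250 before to 50 after an annotated start. Without an entry are MCM4, MCM5, CCNE2, CCND1, CCND2, CDK2, AURKA, BIRC5 and TPX2. They were searched on both strands for the core of the E2F site (TTCCCGC, which reads GCGGGAA on the other strand) and for the CHR element of late cell cycle genes (TTTGAA, which reads TTCAAA on the other strand, or the palindrome TTCGAA). The last motif was the CCAAT box (CCAAT, which reads ATTGG on the other strand). The E2F core was present in 10 of 16 DNA replication genes, 0 of 4 G1 and G1/S genes and 2 of 16 G2 and M phase genes. By window these were 50% of 22 windows of replication genes and 12.5% of 24 windows of G2 and M phase genes, and the core was in 6.55% of all 35116 windows of the table and in 9.26% of those of tested genes. The CHR element was present in 12 of 16 G2 and M phase genes and in 2 of 16 replication genes, by window in 58.3% and 9.09%, against 16.35% of all windows and 11.95% of those of tested genes. The CCAAT box was in 75% of the G2 and M phase windows, 68.2% of the replication windows and 34.6% of all windows. A match is a description of the letters and not evidence of binding. Other forms of the E2F site were not searched, so a promoter without this core may still hold such a site. The same limit holds for the counts of the E2F core by direction below. The promoters of CDT1 (chr16:88803539-88803838, plus strand) and MCM6 (chr2:135876394-135876693, minus strand) are shown as replication genes with and without the searched E2F string. Those of TOP2A (chr17:40417847-40418146, minus strand), CENPF (chr1:214602945-214603244, plus strand) and MKI67 (chr10:128126374-128126673, minus strand) belong to genes that were lower in KO, and that of CDC20 (chr1:43358731-43359030, plus strand) to a gene that was higher. Capitals mark matches to any of the 3 motifs, and in MKI67 a TTTGAA and an ATTGG overlap.
CDT1: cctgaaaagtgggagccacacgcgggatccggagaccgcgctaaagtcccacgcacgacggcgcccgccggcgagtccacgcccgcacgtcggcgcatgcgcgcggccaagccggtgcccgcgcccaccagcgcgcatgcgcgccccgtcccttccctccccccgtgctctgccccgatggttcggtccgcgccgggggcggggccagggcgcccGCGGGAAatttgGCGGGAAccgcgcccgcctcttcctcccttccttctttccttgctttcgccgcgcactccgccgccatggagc
MCM6: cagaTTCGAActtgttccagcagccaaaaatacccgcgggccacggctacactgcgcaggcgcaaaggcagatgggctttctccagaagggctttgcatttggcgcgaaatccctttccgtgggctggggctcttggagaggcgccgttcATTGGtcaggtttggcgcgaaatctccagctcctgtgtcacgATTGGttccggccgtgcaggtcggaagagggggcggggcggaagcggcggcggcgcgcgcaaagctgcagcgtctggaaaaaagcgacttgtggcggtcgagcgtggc
TOP2A: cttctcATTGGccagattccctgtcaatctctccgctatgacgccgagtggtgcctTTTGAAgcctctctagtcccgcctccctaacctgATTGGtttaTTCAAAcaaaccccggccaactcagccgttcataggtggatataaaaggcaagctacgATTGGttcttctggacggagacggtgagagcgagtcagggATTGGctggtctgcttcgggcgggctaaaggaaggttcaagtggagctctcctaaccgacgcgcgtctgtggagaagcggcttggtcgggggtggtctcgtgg
CENPF: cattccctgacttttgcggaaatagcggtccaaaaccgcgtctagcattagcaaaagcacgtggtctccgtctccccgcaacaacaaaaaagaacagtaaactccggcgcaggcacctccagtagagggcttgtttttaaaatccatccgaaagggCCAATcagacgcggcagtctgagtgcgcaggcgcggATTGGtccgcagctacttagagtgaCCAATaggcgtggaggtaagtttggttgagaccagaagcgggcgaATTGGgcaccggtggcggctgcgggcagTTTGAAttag
MKI67: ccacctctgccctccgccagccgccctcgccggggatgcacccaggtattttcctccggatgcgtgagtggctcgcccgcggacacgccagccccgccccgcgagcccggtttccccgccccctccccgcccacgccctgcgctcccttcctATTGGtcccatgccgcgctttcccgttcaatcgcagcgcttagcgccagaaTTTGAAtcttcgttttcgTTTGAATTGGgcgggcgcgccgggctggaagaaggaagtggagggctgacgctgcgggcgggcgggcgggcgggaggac
CDC20: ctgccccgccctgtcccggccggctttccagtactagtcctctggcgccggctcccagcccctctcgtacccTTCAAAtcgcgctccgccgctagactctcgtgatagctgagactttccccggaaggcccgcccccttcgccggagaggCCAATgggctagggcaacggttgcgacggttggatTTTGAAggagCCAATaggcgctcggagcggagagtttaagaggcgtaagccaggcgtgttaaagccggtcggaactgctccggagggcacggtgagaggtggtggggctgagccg
CDT1 carried 2 E2F cores and no CHR element, and MCM6 had CCAAT boxes and a CHR element that began at -246 from its start. TOP2A, CENPF, MKI67 and CDC20 each joined a CHR element with CCAAT boxes. Their CHR matches began at -194 and -151 in TOP2A, 40 in CENPF, -47 and -29 in MKI67, and -178 and -65 in CDC20. The elements did not separate the directions that follow: the CHR element was in 7 of the 8 G2 and M phase genes lower in KO, in 2 of the 3 that were higher (CDC20 and PLK1), and in 3 of the 5 not called that have a promoter in the table. The E2F core was in 4 of 4 replication genes lower in KO, in 2 of 4 that were higher and in 4 of 8 not called.

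In WT cells the members spanned a wide range of levels. Per kilobase of exon, MCM3 (156 ± 2.7 CPM per kb, SD, n = 3), PCNA (145 ± 9.0) and MCM7 (144 ± 1.4) led, followed by CCNB1 at 134 ± 2.9, MCM5 at 133 ± 2.2 and CDC20 at 127 ± 4.1 CPM per kb. The MCM7 and PCNA levels lay within each other's spread, as did those of CCNB1 and MCM5. The lowest were CDC25C at 11.2 ± 0.78, CDC25B at 8.81 ± 0.092, CCNE2 at 5.66 ± 0.46 and E2F2 at 1.40 ± 0.079 CPM per kb. CCND1, the D-type cyclin that responds to growth signals, stood at 18.7 ± 0.50 and CCND2 at 23.7 ± 0.92 CPM per kb.

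The first comparison asked how the cell cycle genes stood in ZNF263 KO cells against WT cells. Subunits of the MCM helicase, CCND1 and E2F1 were higher in KO, and TOP2A and the kinetochore genes BUB1, CENPE and CENPF were lower. In all, 10 of the 45 members were called higher and 13 lower, or 51.1%, beside 38.6% of all genes tested (20% higher and 18.5% lower). The changes were small, with log2 fold changes between -0.49 (TOP2A) and 0.51 (CCND1) and a median size of 0.14, beside 0.17 for all genes. The calls split by class into 5 higher and 4 lower of 18 replication genes, 2 higher and 1 lower of 8 G1 and G1/S genes, and 3 higher and 8 lower of 19 G2 and M phase genes. The median log2 fold change was 0.03 in the replication class, -0.01 in the G1 class and -0.08 in the G2 and M class, and -0.01 over all genes.

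**Figure D1:**
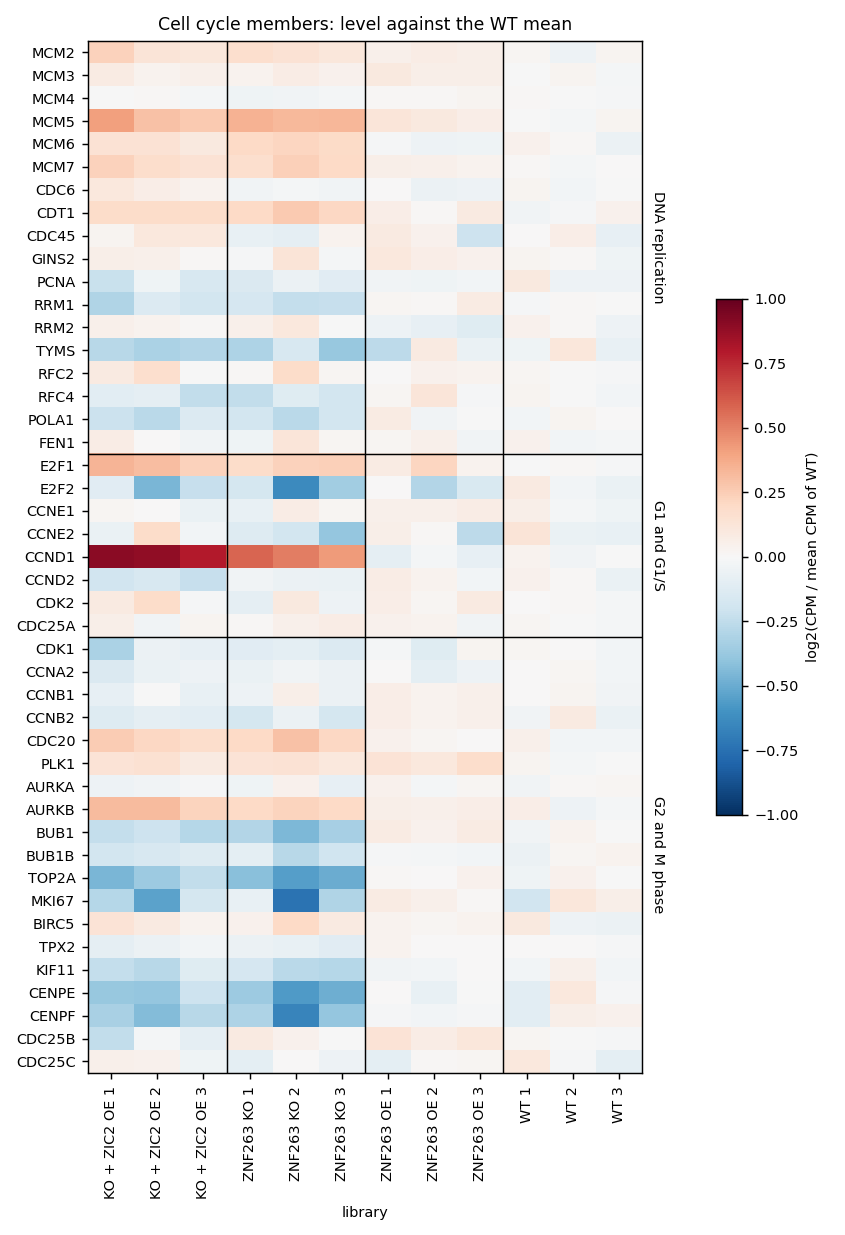
Level of each of the 45 members (rows, grouped by class) in each of the 12 libraries (columns), as the log2 ratio of its CPM to the mean CPM of the 3 WT libraries. Red is above and blue below the WT mean; CCND1 and MCM5 are red in all 6 KO libraries, and TOP2A, CENPE and CENPF are blue in all 6.

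Of the helicase genes, MCM5 (chromosome 22, 35796116 to 35820495, hg19) had 431, 424 and 426 CPM in ZNF263 KO, against 338, 334 and 345 CPM in WT. Every KO library lay above every WT library, and the log2 fold change was 0.33 (SE 0.04, adjusted p = 3.47e-07). MCM6 (chromosome 2, 136597196 to 136634047) had 314, 317 and 312 CPM in KO, against 282, 275 and 263 CPM in WT. The groups did not overlap either, and the difference was 0.20 on the log2 scale (SE 0.03, adjusted p = 8.41e-05). MCM7 rose by 0.20 (SE 0.03, adjusted p = 4.2e-05) and MCM2 by 0.14 (SE 0.04, adjusted p = 0.00427). The other two subunits were not called, with 0.05 for MCM3 (adjusted p = 0.251) and -0.03 for MCM4 (adjusted p = 0.409). MCM7 shares 654 exonic bases with AP4M1 on the opposite strand, and the library kit named in the labels does not mark the strand. AP4M1 had 3265 counts over all libraries, beside 144412 for MCM7.

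Loading and activation of the helicase differed among their genes. CDT1, which loads MCM complexes with CDC6, had 111, 116 and 112 CPM in KO, against 94.6, 96.1 and 100 CPM in WT, a rise of 0.22 on the log2 scale (SE 0.04, adjusted p = 0.000111). Its partner CDC6 had 161, 163 and 162 CPM in KO, against 169, 162 and 165 CPM in WT, and was not called (-0.03, adjusted p = 0.513). CDC45 and GINS2, parts of the active helicase, had log2 fold changes of -0.04 and 0.03 and were not called.

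The members of nucleotide supply and DNA synthesis were lower or not called, whereas the other DNA replication genes given below went both ways. RRM1, the large subunit of ribonucleotide reductase (chromosome 11, 4115915 to 4160155), had 158, 151 and 152 CPM in KO, against 177, 180 and 178 CPM in WT (log2 fold change -0.21, SE 0.04, adjusted p = 0.000293). The KO libraries all lay below the WT libraries, whereas RRM2, the small subunit of the same enzyme, was at 324, 338 and 313 CPM in KO and 322, 315 and 302 CPM in WT (0.05, adjusted p = 0.28). POLA1, the catalytic subunit of the polymerase that starts new strands, fell by 0.21 (SE 0.04, adjusted p = 0.00064), and RFC4, of the loader of the PCNA clamp, fell by 0.19 (SE 0.05, adjusted p = 0.00436). PCNA itself had 189, 201 and 193 CPM in KO, against 224, 201 and 202 CPM in WT. The highest KO library lay just under the lowest WT library, and PCNA was not called (-0.11, SE 0.05, adjusted p = 0.0745). TYMS, thymidylate synthase, fell by 0.29 on the log2 scale (SE 0.08, adjusted p = 0.00497), but it shares 2706 exonic bases with ENOSF1 on the opposite strand, which had 6710 counts to 5517 for TYMS, so its value is uncertain. RFC2 and FEN1 had 0.07 and 0.03 and were not called.

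Among the G1 regulators, CCND1 had the largest log2 fold change of all 45 members. Cyclin D1 (chromosome 11, 69455873 to 69469242) partners CDK4 and CDK6. It had 120, 114 and 107 CPM in KO, against 82.2, 78.0 and 79.9 CPM in WT. The fold was 1.42 (log2 fold change 0.51, SE 0.05, adjusted p = 1.25e-08), and the groups lay far apart beside their spread. Its relative CCND2 had 150, 148 and 147 CPM in KO, against 159, 156 and 148 CPM in WT, and was not called (-0.05, adjusted p = 0.31). E2F1, an activator of replication genes, had 47.4, 48.9 and 49.2 CPM in KO, against 41.7, 42.0 and 41.5 CPM in WT (0.21, SE 0.05, adjusted p = 0.00193). E2F2, a close relative, went the other way, with 6.43, 4.69 and 5.74 CPM in KO, against 7.74, 7.15 and 6.95 CPM in WT (-0.33, SE 0.12, adjusted p = 0.0324). The E2F2 call was lost in 4 of 6 fits that left out a library (KO replicate 2 or 3, WT replicate 1 or 2), with a highest adjusted p = 0.118, and its log2 fold change was -0.24 to -0.47 there. The E-type cyclin CCNE1 had 52.0, 57.9 and 55.4 CPM in KO and 57.1, 54.1 and 53.2 CPM in WT, with a log2 fold change of 0.0017 (adjusted p = 0.983). CCNE2, CDK2 and the phosphatase gene CDC25A were not called. CCNE2 shares 807 exonic bases with INTS8 on the opposite strand, which had 17836 counts to 3716 for CCNE2, so its values here and in the other comparisons are uncertain.

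**Figure D2:**
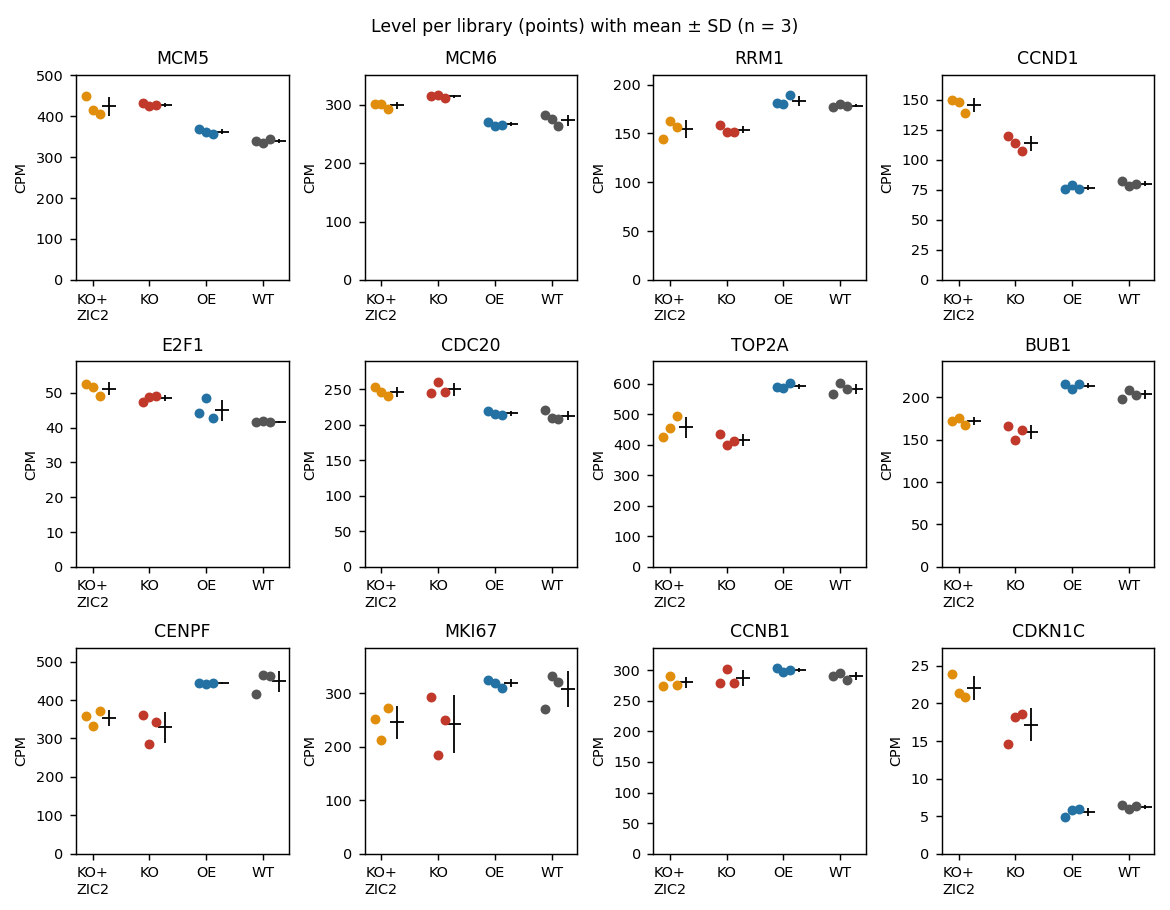
CPM of 11 members and of CDKN1C in each library (points), with the mean ± SD of each group (n = 3, bar beside the points); KO+ZIC2 is ZNF263 KO with ZIC2 OE. MCM5 and CCND1 lie higher and TOP2A, BUB1 and CENPF lower in both KO groups than in WT, and the ZNF263 KO libraries of MKI67 are widely spread.

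Of the genes of G2 and mitosis, the falls were led by TOP2A, the topoisomerase that untangles chromosomes before they separate (chromosome 17, 38544773 to 38574202). It had 436, 398 and 414 CPM in KO, against 567, 601 and 581 CPM in WT. That is 0.714 of the WT level (log2 fold change -0.49, SE 0.04, adjusted p = 1.57e-08), with no overlap. CENPE, the kinesin of the kinetochore, had 96.7, 83.9 and 88.6 CPM in KO, against 116, 133 and 123.5 CPM in WT (-0.46, SE 0.06, adjusted p = 1.12e-06). CENPF, a large kinetochore protein, had 361, 284 and 343 CPM in KO, against 416, 467 and 463 CPM in WT (-0.44, SE 0.06, adjusted p = 6.18e-06). The lowest CENPF library was KO replicate 2, without which the log2 fold change was -0.35, and it was -0.35 to -0.52 over the 6 fits that left out a library. BUB1, a kinase of the spindle checkpoint, had 166, 149 and 162 CPM in KO, against 199, 209 and 203 CPM in WT (-0.35, SE 0.04, adjusted p = 5.29e-07). In CENPE, CENPF and BUB1 every KO library lay below every WT library. BUB1B, a relative of BUB1, fell by 0.19 (SE 0.04, adjusted p = 0.00106), and KIF11, the motor that separates the spindle poles, fell by 0.24 (SE 0.04, adjusted p = 0.00016).

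MKI67, which encodes the proliferation marker Ki-67 (chromosome 10, 129894925 to 129924468), had 293, 185 and 250 CPM in KO, against 270, 333 and 321 CPM in WT. The groups overlapped, since KO replicate 1 lay above WT replicate 1. Its log2 fold change of -0.34 (SE 0.11, adjusted p = 0.0133) was -0.18 (adjusted p = 0.0313) without KO replicate 2 and was not called without WT replicate 2 (adjusted p = 0.0659). The Wald test of DESeq2 did not call it either (adjusted p = 0.0965). CCNB2, a B-type cyclin, had 77.8, 84.3 and 77.8 CPM in KO, against 85.8, 93.8 and 84.1 CPM in WT (-0.14, SE 0.05, adjusted p = 0.0191). KO replicate 2 lay just above the lowest WT library, and the call was lost in 3 of the 6 fits that left out a library (KO replicate 1 or 3, or WT replicate 2; highest adjusted p = 0.158).

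Not all mitotic genes were lower. CDC20, the activator of the anaphase-promoting complex (chromosome 1, 43824626 to 43828873), had 244, 260 and 245 CPM in KO, against 220.5, 209 and 208 CPM in WT. Every KO library was above every WT library (log2 fold change 0.23, SE 0.04, adjusted p = 4.32e-05). AURKB, the kinase of the chromosomal passenger complex, rose by 0.20 (SE 0.04, adjusted p = 0.000323) and PLK1 by 0.13 (SE 0.04, adjusted p = 0.0063). The core mitotic kinase CDK1 had 110, 111 and 108 CPM in KO, against 120, 119 and 117 CPM in WT, with a log2 fold change of -0.11 (SE 0.05) that was not called (adjusted p = 0.0906). Its partner CCNB1 had 280, 302 and 279 CPM in KO and 290, 296 and 283 CPM in WT (-0.02, SE 0.04, adjusted p = 0.769). CCNA2, AURKA, BIRC5, TPX2, CDC25B and CDC25C had log2 fold changes of -0.08 to 0.11 and were not called. The value of CDC25C is uncertain, since it shares 586 exonic bases with FAM53C on the opposite strand, which had 31723 counts to 7227 for CDC25C.

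**Figure D3:**
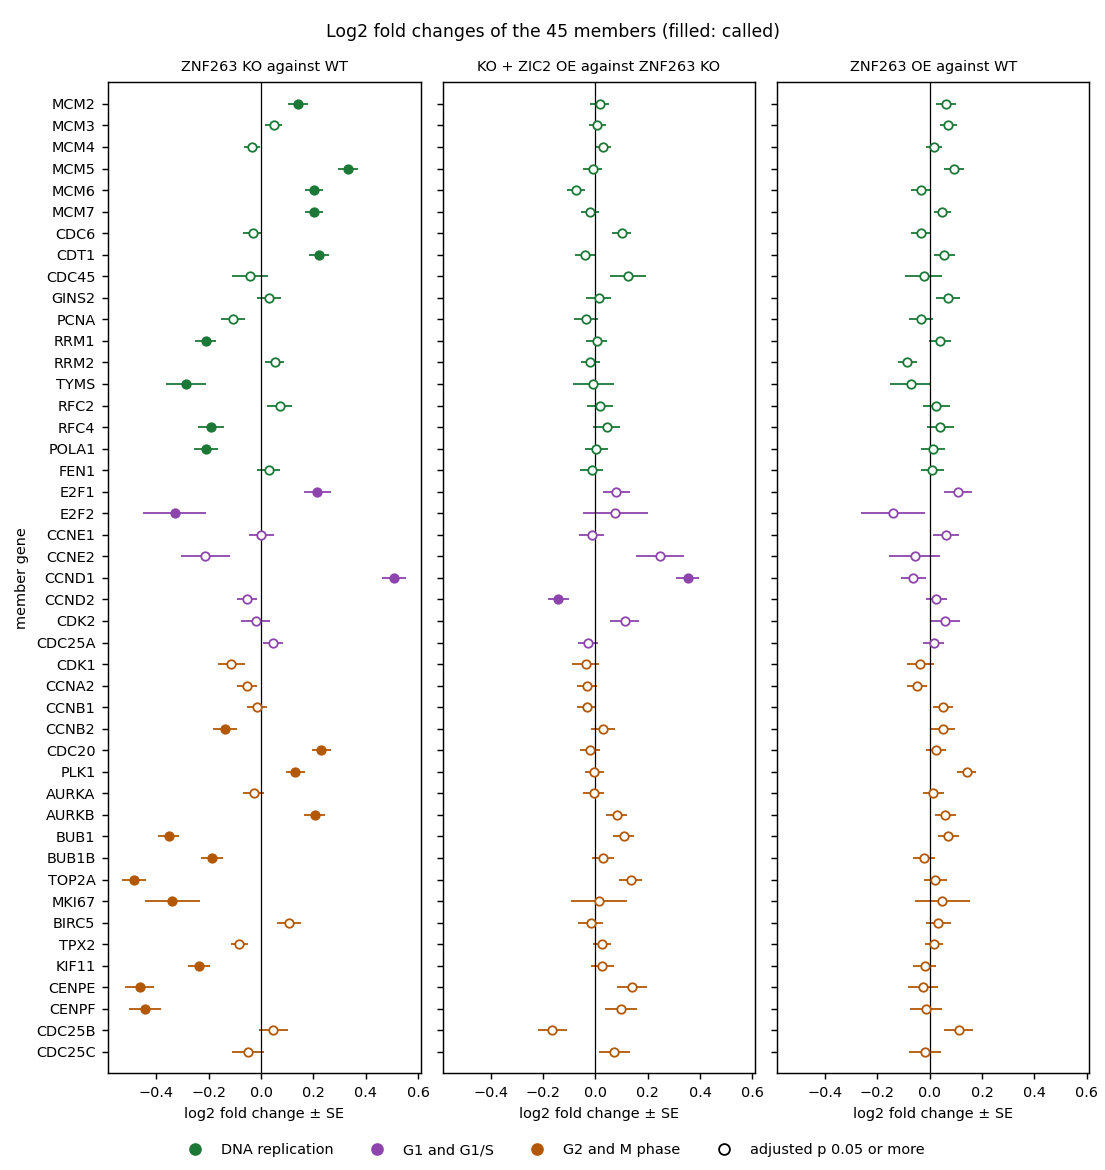
Log2 fold change ± SE (horizontal axis) of the 45 members (rows) in ZNF263 KO against WT (left), in KO with ZIC2 OE against ZNF263 KO (middle) and in ZNF263 OE against WT (right); filled points were called at an adjusted p under 0.05. There are 23 filled points on the left, 2 in the middle (CCND1 and CCND2) and 0 on the right.

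The log2 fold changes of the members followed the GC content of their transcripts. The Spearman coefficient between log2 fold change and GC content was 0.76 across the 45 members in ZNF263 KO against WT, beside 0.43 across 14537 tested genes, in the same libraries and from the same fit. In KO with ZIC2 OE against WT it was 0.68 across the members and 0.45 across the genes, in ZNF263 OE against WT 0.45 and 0.26, and in KO with ZIC2 OE against ZNF263 KO -0.17 and 0.01. The comparisons against WT share the WT libraries. Genes are not independent replicates, and no p is given. Over all genes the median log2 fold change was -0.17 in the 10% of genes with the lowest GC content (median 38.7%) and 0.19 in the 10% with the highest (median 64.2%). TOP2A and CENPE have transcripts of 38.7% and 35.3% GC, whereas MCM5 has 58.6% and CCND1 63.7%. A correction of each library for GC content and length left 6 members higher and 13 lower, of which 16 were called in the same direction as before. That is 19 of 45 members, beside 29.7% of all genes tested under the same correction. The Spearman coefficient across the members was then 0.43. These 16 were MCM5, MCM6, MCM7, CCND1 and CDC20, which were higher, and RRM1, TYMS, RFC4, E2F2, CCNB2, BUB1, BUB1B, TOP2A, MKI67, CENPE and CENPF, which were lower. After the correction the log2 fold change of TOP2A was -0.30 (SE 0.03), that of CENPE -0.22, of CENPF -0.24, of MCM5 0.22 and of CCND1 0.39. MCM6, with 43.1% GC, stood at 0.30 after the correction (SE 0.03, adjusted p = 1.29e-09). The calls of MCM2, CDT1, POLA1, E2F1, PLK1, AURKB and KIF11 were lost, and PCNA (-0.12, adjusted p = 0.00301), GINS2 (-0.11, adjusted p = 0.0334) and RRM2 (0.10, adjusted p = 0.011) were called. Whether GC content acts through library preparation or through the genes themselves was not tested.

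**Figure D4:**
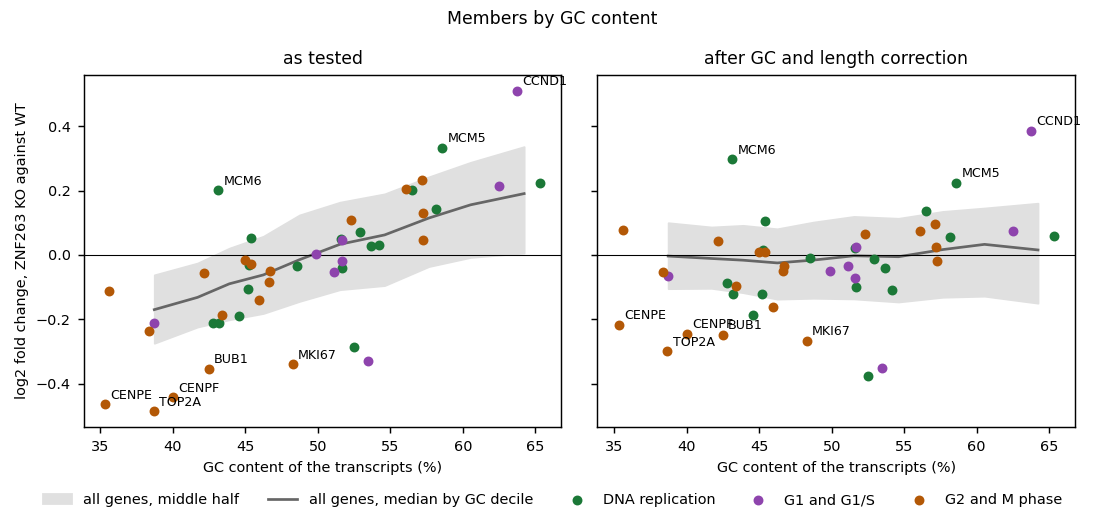
Log2 fold change in ZNF263 KO against WT (vertical axis) of the 45 members, coloured by class, over the GC content of their transcripts (horizontal axis, %), as tested (left) and once corrected for GC content and length (right). The grey line and band are the median and the middle 50% of all genes in 10 bins of GC content; MCM6, MCM5 and CCND1 lie above the band and TOP2A, CENPF, BUB1 and MKI67 below it in both panels.

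The classes were also summed within each library. The 18 replication genes together had 4088, 4188 and 4090 CPM in ZNF263 KO, against 3963, 3899 and 3882 CPM in WT. The 19 G2 and M phase genes had 3420, 3212 and 3289 CPM in KO, against 3667, 3837 and 3745 CPM in WT. The groups did not overlap for either sum. The ratio of the replication sum to the G2 and M sum was 1.20, 1.30 and 1.24 in KO, against 1.08, 1.02 and 1.04 in WT. After the GC correction it was 1.18 to 1.25 in KO, against 1.07 to 1.12 in WT. These sums rest on the most abundant genes, and the sum of MCM2 to MCM7 alone was 2683 ± 20.7 CPM in KO and 2443 ± 16.6 CPM in WT (SD, n = 3). By the median level of each class, which is set by its genes of middle abundance, the order was the other way. The difference taken was the median log2 CPM of the replication genes minus that of the G2 and M genes. It was -0.02 ± 0.06 in KO and 0.07 ± 0.05 in WT (SD, n = 3). The medians were 7.30 ± 0.02 for replication and 7.32 ± 0.06 for G2 and M in KO, against 7.42 ± 0.01 and 7.35 ± 0.04 in WT. The sums and these median levels thus gave opposite signs for the shift between the classes. The median log2 fold changes, 0.03 in the replication class and -0.08 in the G2 and M class, were ordered as the sums were.

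**Figure D5:**
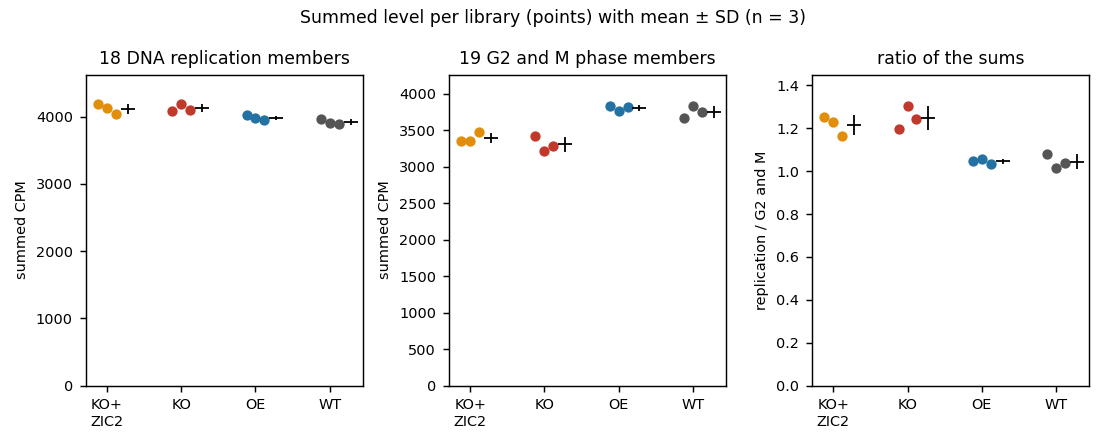
Summed CPM of the 18 DNA replication members (left) and of the 19 G2 and M phase members (middle), and the ratio of the sums (right), in each library (points) with the mean ± SD (n = 3); KO+ZIC2 is ZNF263 KO with ZIC2 OE. The ratio lies at 1.16 to 1.30 in the 6 KO libraries and at 1.02 to 1.08 in the ZNF263 OE and WT libraries.

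Lists of further cell cycle genes are set beside the members. Of 32 other DNA replication genes, 5 were higher and 13 lower in KO, or 56.25%, beside 38.6% of all genes tested. Their median log2 fold change was -0.09. POLD2, a subunit of polymerase delta, rose by 0.35 (SE 0.05, adjusted p = 2.76e-06), and the histone chaperone CHAF1A rose by 0.24 (SE 0.04, adjusted p = 4.69e-05). CDC7, the kinase that fires origins, fell by 0.32 (SE 0.05, adjusted p = 1.72e-05). Of 35 other mitosis genes, 1 was higher and 18 lower, or 54.3%, with a median of -0.11. The one that rose was MYBL2, a transcription factor of late cell cycle genes, which had 292, 301 and 292 CPM in KO, against 242, 230 and 238 CPM in WT (0.32, SE 0.04, adjusted p = 9.71e-07). The condensin gene SMC4 fell by 0.26 (SE 0.03, adjusted p = 3.02e-06) and the spindle gene DLGAP5 by 0.23 (SE 0.04, adjusted p = 3.42e-05). After the GC correction both calls were lost, at -0.06 for SMC4 (adjusted p = 0.158) and -0.07 for DLGAP5 (adjusted p = 0.0593), and MYBL2 stood at 0.20 and POLD2 at 0.23. The correction left 2 higher and 8 lower of the other replication genes, and 1 higher and 9 lower of the other mitosis genes. These are 10 of 32 and 10 of 35, beside 29.7% of all genes tested under the same correction.

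Of 29 inhibitors, checkpoint genes and other regulators, 28 were tested, with 8 higher and 8 lower. That is 57.1%, beside 38.6% of all genes tested. CDKN1C, the inhibitor p57 of cyclin-dependent kinases (chromosome 11, 2904448 to 2906995), had 14.6, 18.2 and 18.6 CPM in KO, against 6.53, 5.97 and 6.29 CPM in WT. It was 2.69-fold higher (log2 fold change 1.43, SE 0.11, adjusted p = 6.32e-10). WEE1, the kinase that restrains CDK1, had 160, 166 and 158 CPM in KO, against 132, 126 and 129 CPM in WT (0.32, SE 0.04, adjusted p = 6.94e-07). The checkpoint kinase gene ATR fell by 0.42 (SE 0.07, adjusted p = 6.99e-05), and the cyclin G gene CCNG1 fell by 0.29 (SE 0.04, adjusted p = 2.27e-06). After the GC correction ATR stood at -0.21 (adjusted p = 0.00328) and CCNG1 at -0.15 (adjusted p = 8.54e-05). It left 7 regulators higher and 5 lower, or 12 of 28, beside 29.7% of all genes tested. CDKN1A, the inhibitor p21, had 13.0, 14.7 and 15.8 CPM in KO, against 14.8, 11.1 and 10.96 CPM in WT, and was not called (0.23, SE 0.10, adjusted p = 0.0851).

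The second comparison asked whether ZIC2 OE changed these genes in KO cells. It set KO with ZIC2 OE against ZNF263 KO, and 2 of 45 members were called (1 higher, 1 lower), beside 8.34% of all genes (4.99% higher and 3.35% lower). CCND1 rose further, to 150, 148 and 139 CPM in KO with ZIC2 OE, against 120, 114 and 107 CPM in ZNF263 KO (log2 fold change 0.35, SE 0.04, adjusted p = 5.82e-06), with no overlap. CCND2 fell, with 135, 138 and 131 CPM in KO with ZIC2 OE, against 150, 148 and 147 CPM in ZNF263 KO (-0.14, SE 0.04, adjusted p = 0.0261). CCND1 and CCND2 thus changed in opposite directions, and a further D-type cyclin gene, CCND3, which is not a member, rose (given below). The CCND2 call was lost in 4 of 6 fits that left out a library (KO replicate 1 or 3, KO with ZIC2 OE replicate 1 or 3), with a highest adjusted p = 0.116, and in a fit of only these 2 groups (adjusted p = 0.0929).

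None of the 18 replication genes and none of the 19 G2 and M phase genes was called in edgeR with ZIC2 OE, and 2 and 4 of them had an unadjusted p under 0.05. DESeq2 called none of them either. TOP2A had 425, 454 and 493 CPM in KO with ZIC2 OE, against 436, 398 and 414 CPM in ZNF263 KO, which overlapped (0.13, SE 0.04, adjusted p = 0.0656). It was called after the GC correction (0.11, adjusted p = 0.00841). CENPE had 0.14 (SE 0.06, adjusted p = 0.154), BUB1 0.11 (SE 0.04, adjusted p = 0.12) and CENPF 0.10 (SE 0.06, adjusted p = 0.414). CDC6, the licensing factor, had 178, 173 and 169 CPM in KO with ZIC2 OE, against 161, 163 and 162 CPM in ZNF263 KO (0.10, SE 0.04, adjusted p = 0.0926). MCM6 had 302, 302 and 292 CPM, against 314, 317 and 312 CPM in ZNF263 KO (-0.07, SE 0.03, adjusted p = 0.236). CDC45 had 0.12 (SE 0.07, adjusted p = 0.33), and the cyclin CCNE2, with 14.7, 17.5 and 15.1 CPM in KO with ZIC2 OE against 14.1, 13.6 and 11.8 CPM in ZNF263 KO, had 0.25 (SE 0.09, adjusted p = 0.117). After the GC correction CDC6 was called higher and MCM6, MCM7 and CDC25B were called lower, which with TOP2A, CCND1 and CCND2 made 7 of 45 members, beside 14.9% of all genes under the same correction. In this comparison the Spearman coefficient with GC content was 0.01 over all genes before the correction. Over the members it was -0.17 before and -0.34 after. In the 10% of genes with the highest GC content the median log2 fold change went from -0.02 to -0.05. Over all genes, calls went from 771 to 872 higher and from 517 to 1435 lower. Whether the added calls came from the correction itself was not tested. Without the correction the log2 fold changes of MCM2, PCNA, E2F1, CCNE1, CDK1, CCNB1 and MKI67 were -0.04 to 0.08. That of MKI67 was 0.01 in the fit of all libraries and ran from -0.15 to 0.17 over the 6 fits that left out a library. Its sign thus turned on the library left out. Of the other lists, without the correction 2 of 35 mitosis genes (ANLN, 0.22, and NCAPG, 0.16) and 5 of 28 regulators were called, all higher. Of all genes tested, 8.34% were called. After the GC correction 3 of these mitosis genes were higher and 1 lower (MYBL2, -0.11), beside 14.9% of all genes. Of the regulators 5 were then higher and 2 lower (E2F8, -0.21, and ATR, -0.19). NCAPG shares 6532 exonic bases with LCORL on the opposite strand, which had 3403 counts to 21658 for NCAPG. CDKN1C reached 23.9, 21.4 and 20.8 CPM in KO with ZIC2 OE, against 14.6, 18.2 and 18.6 CPM in ZNF263 KO (0.39, SE 0.09, adjusted p = 0.00379). CDKN1A had 20.6, 19.2 and 17.8 CPM, against 13.0, 14.7 and 15.8 CPM in ZNF263 KO (0.43, SE 0.10, adjusted p = 0.00469), and CCND3 rose by 0.26 (SE 0.06, adjusted p = 0.00395). Without replicate 1 of KO with ZIC2 OE the calls of CDKN1C, CDKN1A and CCND3 were lost by a narrow margin (highest adjusted p = 0.0511 for CDKN1C, 0.0539 for CDKN1A and 0.0532 for CCND3), and that of CDKN1C was also lost without ZNF263 KO replicate 1. The NCAPG call was lost in 3 of 6 such fits.

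KO with ZIC2 OE was also set against WT, a comparison that shares the WT libraries with the first and the KO with ZIC2 OE libraries with the second, while the first and the second share the ZNF263 KO libraries. Here 10 members were higher and 14 lower, or 53.3%, beside 37.6% of all genes (20.3% higher and 17.3% lower). The replication class had 5 higher and 5 lower, the G1 class 2 higher and 1 lower, and the G2 and M class 3 higher and 8 lower. CCND1 was 1.82-fold higher (log2 fold change 0.86, SE 0.05, adjusted p = 2.6e-12), at 150, 148 and 139 CPM in KO with ZIC2 OE, against 82.2, 78.0 and 79.9 CPM in WT. MCM5 rose by 0.32 (SE 0.04, adjusted p = 6.44e-07), E2F1 by 0.30 (SE 0.05, adjusted p = 0.000123), AURKB by 0.29 (SE 0.04, adjusted p = 9.37e-06) and CDC20 by 0.21 (SE 0.04, adjusted p = 0.00014). TOP2A fell by 0.35 (SE 0.04, adjusted p = 2.18e-06), CENPF by 0.34 (SE 0.06, adjusted p = 0.00013), CENPE by 0.32 (SE 0.06, adjusted p = 0.000117) and BUB1 by 0.25 (SE 0.04, adjusted p = 6.3e-05). MCM7 rose by 0.18 (SE 0.03, adjusted p = 0.000151) and RRM1 fell by 0.21 (SE 0.04, adjusted p = 0.000442). CCNE1 and CCNB1 were not called, at -0.01 and -0.05. CCND2 fell by 0.20 (SE 0.04, adjusted p = 0.000564) and PCNA by 0.14 (SE 0.05, adjusted p = 0.0209). MKI67 fell by 0.32 (SE 0.11, adjusted p = 0.0188), with overlapping groups. The PCNA, RFC4, CDK1 and MKI67 calls were each lost in 3 of 6 fits that left out a library, that of PLK1 in 2 (WT replicate 2 or 3) and that of MCM6 in 1 (WT replicate 3). For PCNA these were KO with ZIC2 OE replicates 1 and 3 and WT replicate 1, for RFC4 KO with ZIC2 OE replicate 3 and WT replicates 1 and 2, for CDK1 KO with ZIC2 OE replicate 1 and WT replicates 1 and 2, and for MKI67 replicate 2 of KO with ZIC2 OE and WT replicates 2 and 3. The GC correction left 19 of 45 members called, beside 29% of all genes, 14 of which had also been called without it and with the same sign. The calls of E2F1 (0.11, adjusted p = 0.103), CDC20 (0.04, adjusted p = 0.339), MCM7 (0.05, adjusted p = 0.208), BUB1B (-0.08, adjusted p = 0.0873), CDT1, POLA1, PLK1 and KIF11 were lost. The CDK1 value of -0.15 (adjusted p = 0.0291) became 0.01, and MCM2, called at 0.16 (adjusted p = 0.00194), came to -0.00044. Still called, MCM5 stood at 0.16, AURKB at 0.12, CCND1 at 0.68, TOP2A at -0.18, CENPF at -0.17, CENPE at -0.11 and BUB1 at -0.15. The class sums were 4184, 4122 and 4041 CPM for replication in KO with ZIC2 OE, against 3963, 3899 and 3882 CPM in WT. For G2 and M they were 3347, 3357 and 3479 CPM in KO with ZIC2 OE, against 3667, 3837 and 3745 CPM in WT. Of the other replication genes 6 were higher, with POLD2 (0.33) and CHAF1A (0.22) first, and 15 lower, with WDHD1 (-0.23), a factor of the replication fork, and CDC7 (-0.26) first. Of the other mitosis genes 2 were higher, MYBL2 (0.27) and ANLN (0.10, adjusted p = 0.0487, lost in 4 of 6 fits that left out a library), and 13 lower, with SMC4 (-0.21) and ECT2 (-0.28), a regulator of cytokinesis, first. Of the regulators 10 were higher and 10 lower, with CCND3 at 0.55, ATR at -0.60 and the checkpoint kinase CHEK1 at -0.20. After the GC correction the calls of CHAF1A (0.07, adjusted p = 0.104), WDHD1 (-0.07, adjusted p = 0.099) and SMC4 (-0.03, adjusted p = 0.531) were lost, POLD2 stood at 0.16, CDC7 at -0.17, MYBL2 at 0.09, ECT2 at -0.13 and CHEK1 at -0.11, and ANLN at 0.23. It left 1 higher and 6 lower of the other replication genes, 2 and 10 of the other mitosis genes, and 7 and 7 of the regulators. These are 7 of 32, 12 of 35 and 14 of 28, beside 29% of all genes under the same correction. Without the correction 65.6, 42.9 and 71.4% of these lists were called, beside 37.6% of all genes. CDKN1C was 3.53-fold higher in KO with ZIC2 OE than in WT (adjusted p = 1.16e-11), and CDKN1A 1.58-fold (adjusted p = 3e-05).

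The last comparison asked the same of ZNF263 OE against WT, with the same WT libraries as before. None of the 45 members was called in edgeR or in DESeq2, beside 0.764% of all genes (0.317% higher and 0.447% lower), and 4 had an unadjusted p under 0.05. None was called after the GC correction either, beside 1.54% of all genes. The log2 fold changes lay between -0.14 (E2F2) and 0.14 (PLK1), with SEs of 0.03 to 0.12. PLK1 had 167, 163 and 171 CPM in ZNF263 OE, against 154, 149 and 151 CPM in WT. The groups did not overlap, at 0.14 (SE 0.04, adjusted p = 0.0804), and a fit of only these 2 groups called it (adjusted p = 0.0081). MCM5 had 368, 362 and 356 CPM in ZNF263 OE, against 338, 334 and 345 CPM in WT (0.09, SE 0.04, adjusted p = 0.346). RRM2 had 302, 296 and 288 CPM in ZNF263 OE, against 322, 315 and 302 CPM in WT (-0.09, SE 0.04, adjusted p = 0.411). E2F1 had 44.1, 48.4 and 42.7 CPM in ZNF263 OE, against 41.7, 42.0 and 41.5 CPM in WT (0.11, SE 0.05, adjusted p = 0.482), and CDC25B, a phosphatase that activates CDK1, had 0.11 (SE 0.06, adjusted p = 0.503). The log2 fold changes of MCM2, MCM3, PCNA, CCNE1, CDK1, CCNB1, BUB1 and MKI67 lay between -0.04 and 0.07. CCND1 had 75.3, 78.9 and 75.8 CPM in ZNF263 OE, against 82.2, 78.0 and 79.9 CPM in WT, and TOP2A had 589, 585 and 602 CPM in ZNF263 OE, against 567, 601 and 581 CPM in WT. Both overlapped between the groups. The ratio of the class sums was 1.05, 1.06 and 1.04 in ZNF263 OE, against 1.08, 1.02 and 1.04 in WT. None of the 32 other replication genes and none of the 35 other mitosis genes was called, with 2 and 1 at an unadjusted p under 0.05. Of the regulators only CDKN1A was called, with 8.51, 9.37 and 7.90 CPM in ZNF263 OE, against 14.8, 11.1 and 10.96 CPM in WT (log2 fold change -0.51, SE 0.12, adjusted p = 0.0362). This call was lost in 4 of 6 fits that left out a library (each ZNF263 OE replicate, and WT replicate 1), where the log2 fold change was -0.37 to -0.59 over the 6 fits and the highest adjusted p was 0.24.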

How the data were processed

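The deposited table gives whole-number read counts per gene for 12 libraries, with gene coordinates and an exonic length. The authors counted uniquely aligned reads, per the file headers. STAR, featureCounts, DESeq2 and the build hg19 are named in the submitters' processing notes, which give no versions. Libraries were grouped by their labels. The poly(A) kit named in the labels does not mark the strand.

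The 45 members and all lists were chosen with earlier results of these data known. Genes were filtered with filterByExpr, scaled by TMM and tested with the two-sided quasi-likelihood test of edgeR 4.0.16 (R 4.3.3) in 1 fit of the 4 groups with 8 residual degrees of freedom (common biological coefficient of variation 0.0397). An SE is the log2 fold change divided by the root of F. DESeq2 1.42.0 was an alternative, as were other scaling, no filter, fits of 2 groups, a replicate block and leaving out each library. GC content came from GENCODE v29 transcripts matched by symbol (14537 of 15437 tested genes, and all 45 members). The GC and length correction used splines (5 degrees of freedom each, prior count 2), entered as an offset. Genes named in each comparison are MCM2, PCNA, E2F1, CCNE1, CCND1, CDK1, CCNB1 and MKI67, the 3 of each class with the smallest adjusted p, and of each other list the 2 called in each direction with the smallest adjusted p. Further members were named after their values were seen. A result that this rule would name is not reported here. The test was checked on simulated counts. Figures were drawn with matplotlib 3.10.9.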

Additional observations from a re-analysis of the deposited data

How the results depend on the processing

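The members called lower in ZNF263 KO against WT stayed within 1.5 times of 13 under all alternatives, and those called higher stayed within 1.5 times of 10 except under the GC and length correction, which left 6, also with the replicate block. In KO with ZIC2 OE against WT the same correction left 5 higher of 10, and 6 with the block. There the GC correction gave CDK1 a log2 fold change of 0.0104 (0.0106 with the block), against -0.15 without it, and MCM2 one of -0.00044 (-0.0011 with the block), against 0.16. In KO with ZIC2 OE against ZNF263 KO, 1 member was higher and 1 lower. Without the filter on low counts 2 were higher, and a fit of only the 2 groups called 0 lower. Under the GC correction 3 were higher and 4 lower, and with the block added 4 and 4. Of all genes tested in this comparison, 8.34% were called without the correction and 14.9% with it. In ZNF263 OE against WT, 1 was called higher in a fit of only the 2 groups, against 0. The causes were not tested.

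The shift of the replication class against the G2 and M class, by medians of log2 CPM, was -0.09 in ZNF263 KO against WT and 0.26 by summed CPM. In KO with ZIC2 OE against WT it was -0.06, 0.0203 after the GC correction and 0.22 by summed CPM. In KO with ZIC2 OE against ZNF263 KO it was 0.03, 0.0914 after the GC correction and -0.0401 by summed CPM. In ZNF263 OE against WT it was -0.03, and -0.0902 after the GC correction.

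Leaving out 1 library gave 10 to 11 higher and 10 to 14 lower members in ZNF263 KO against WT, 8 to 11 and 11 to 14 in KO with ZIC2 OE against WT, 1 to 3 and 0 to 2 in KO with ZIC2 OE against ZNF263 KO, and 0 and 0 in ZNF263 OE against WT. The median shift then ran from -0.12 to -0.07, from -0.09 to -0.05, from 0.0081 to 0.06 and, for ZNF263 OE, from -0.05 to -0.01.

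With the replicate number as a block, 10 members were higher and 14 lower in ZNF263 KO against WT, 10 and 14 in KO with ZIC2 OE against WT, 1 and 1 against ZNF263 KO, and 0 and 0 in ZNF263 OE. Deviations of each library from its group mean were correlated between groups. Same-numbered libraries correlated at -0.110 to 0.112 and differently numbered ones at -0.102 to 0.147, and the numbers were not taken as pairs. With 3 libraries a group, the SEs of the members' log2 fold changes, 0.03 to 0.12 in ZNF263 OE against WT, limit which differences can be called.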
